A study of Mus musculus with 6 samples.

Results

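The genes of ATP release and purinergic signalling were examined in C2C12 cells, a line of mouse myoblasts, as 10 genes chosen by symbol out of the 22375 rows of the deposited table. They are Panx1, Gja1 and Gjc1, which encode channel proteins, Entpd1 and Nt5e, which encode surface enzymes that break down nucleotides, and P2rx4, P2rx7, P2ry2, Adora1 and Adora2b, which encode receptors. RNA-seq covered 3 libraries of the CON group, cells without stretching, and 3 libraries of the 4H group, cells stretched in cycles to 15% elongation over 4 h. The stretched cells sat near confluence on elastic plates coated with poly-lysine, and for these libraries the labels name no transgene, knockdown or drug in either group. C2C12 is 1 immortal cell line, and the labels call the 3 libraries of a group replicate biosamples without saying that they came from separate cultures, so the p values below measure the spread between these libraries, which may be technical.

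Cells release ATP through channels in the plasma membrane, among them hemichannels made of pannexins or connexins, and deformation of a cell is a classical trigger of this release. Outside the cell, ATP opens P2X receptors, which are cation channels, and activates P2Y receptors, which act through G proteins. Ecto-nucleotidases shorten ATP stepwise to AMP and then to adenosine, which acts on its own G-protein-coupled receptors. In muscle this system is known from ATP release by contracting fibers, from coupling of myoblasts by gap junctions before fusion, and from P2X7 in dystrophic muscle.

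Values are FPKM as the authors deposited them, which scale the fragments of a gene by its transcript length and by the total of the library, so that levels can be compared between genes. The counts behind them are not part of the table, and absolute depth is unknown. Relative depth, as the steps between values of low genes (below 0.1 FPKM) show it, was within 1.58% for all 15 pairs of libraries. Values of single libraries are given below in the order of replicates 1, 2 and 3. The FPKM of a library summed to between 385146 and 397260. Myoblast markers were present, with 5 of 6 at a mean of at least 0.5 FPKM, among them Myod1, Myf5 and Des. Their summed level was 120.8 to 121.8 FPKM in the CON libraries and 160.2 to 168.4 FPKM in the 4H libraries, most of it Des. Of the 5 that were tested as described below, 4 were called higher and 1 lower, with a median log2 change of 0.68. Over all genes tested, 22.6% were called higher and 24.1% lower. Myod1 rose from 5.13 ± 0.573 to 18.2 ± 0.738 FPKM, and Myf5 was the one that fell, from 15.8 ± 0.851 to 9.82 ± 1.13 FPKM. Myotube markers, 6 genes, summed to 1.80 to 2.35 FPKM in CON libraries against 2.79 to 3.13 FPKM in 4H libraries, and both tested, Mymk and Acta1, were called higher. The untested ones went the other way at low values. Myog was at 0.281, 0.136 and 0.235 FPKM in CON libraries against 0.0794, 0 and 0 FPKM in 4H libraries. Myh1 was at 0.0443, 0.0209 and 0.0942 FPKM in CON libraries and listed at 0 in the 4H libraries. Myh3 and Ckm had lower 4H means, with overlap. The part of these markers in the results below was not tested. In a culture, a change in the share of cells that express a gene cannot be told apart from a change in RNA per cell.

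Differences were tested with limma on log2(FPKM + 0.5), a scale on which changes of low genes come out too small, in 11593 genes whose mean over the 6 libraries reached 0.5 FPKM. The change on this scale is written log2FC. A gene was called at a Benjamini-Hochberg adjusted p of at most 0.05. Of the 10 genes, 8 passed the filter, and Entpd1 and Adora1 did not. Among these 8, 4 were called higher in the 4H group (P2rx7, P2ry2, Nt5e and Gja1), 1 was called lower (P2rx4), and 3 were not called (Panx1, Gjc1 and Adora2b). Over all genes tested, 46.7% were called, 22.6% higher and 24.1% lower, so a count of 5 in 8 lies near the background. The study also asked for a log2FC of 1 or more in either direction, and 1 of the 10 genes, P2rx7, passed both thresholds, as did 3.88% of all genes tested (2.61% higher and 1.28% lower). Of the 8 genes that passed the filter, the groups did not overlap in 5, the same 5 that were called, against 56.7% of all genes tested. This count, too, lies near the background. With 3 libraries against 3, a two-sided exact permutation test of a single value cannot go below 0.1.

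**Figure D1:**
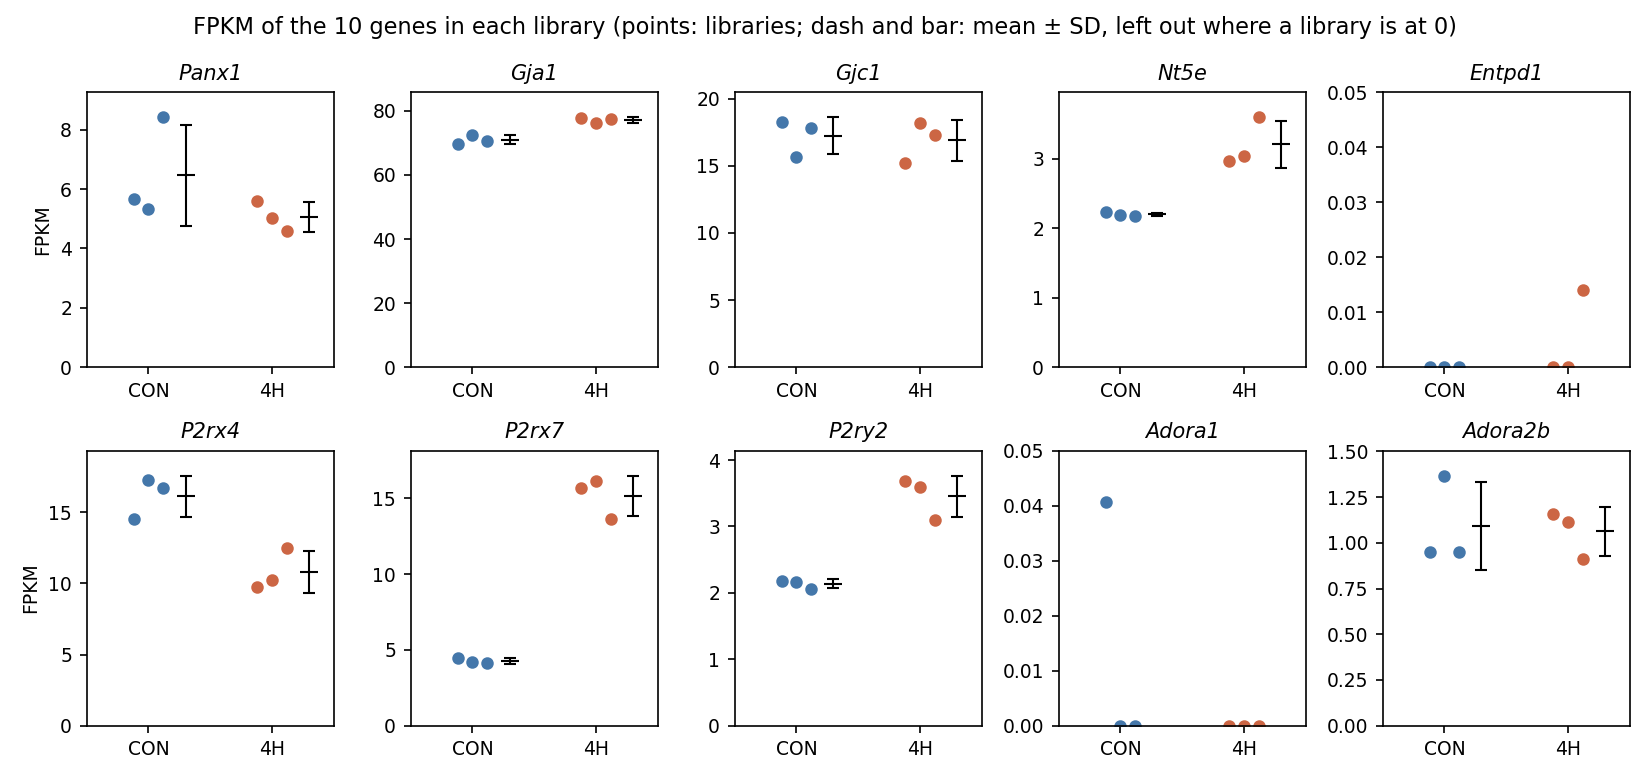
FPKM (vertical axes, each starting at 0) of the 10 genes in the 3 CON and 3 4H libraries, with 1 point per library and the mean ± SD beside the points where no library is at 0. P2rx7 lies between 4.12 and 4.46 FPKM in the CON libraries and between 13.6 and 16.2 FPKM in the 4H libraries, while Entpd1 and Adora1 are listed at 0 in all but 1 library each.

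The levels of the 10 genes covered a wide range. In the CON group Gja1 stood highest at 71.0 FPKM, followed by Gjc1 at 17.2, P2rx4 at 16.1, Panx1 at 6.47, P2rx7 at 4.27, Nt5e at 2.20, P2ry2 at 2.13 and Adora2b at 1.09 FPKM. Gjc1 and P2rx4 overlapped in this order, and the lowest library of Nt5e and the highest of P2ry2 were both at 2.18 FPKM. In the 4H group P2rx7, at 15.2 FPKM, stood between Gjc1 at 16.9 and P2rx4 at 10.8 FPKM. There the libraries of Gjc1 overlapped those of P2rx7, and those of P2ry2 overlapped those of Nt5e, while P2rx7 exceeded P2rx4 in each library.

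The P2X receptors moved in opposite directions, P2rx7 with the largest change of the 10 genes and P2rx4 as the only one called lower. P2rx7 (ENSMUSG00000029468) encodes the P2X7 receptor, an ATP-gated cation channel that needs high ATP and is known for the release of interleukin-1β in macrophages. It was at 4.46, 4.22 and 4.12 FPKM in CON libraries against 15.7, 16.2 and 13.6 FPKM in 4H libraries. Every 4H library stood far above every CON library, and the CON libraries lay close together. The mean rose from 4.27 ± 0.177 to 15.2 ± 1.34 FPKM (SD, n = 3 libraries each), 3.55 times the CON mean, with a log2FC of 1.71 (SE 0.08, 95% interval 1.54 to 1.89, limma adjusted p = 1.15e-06). By size of rise it was number 72 of the 11593 genes tested.

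P2rx4 (ENSMUSG00000029470) encodes P2X4, the closest relative of P2X7 and a channel that opens at lower ATP. It was at 14.5, 17.2 and 16.7 FPKM in CON libraries against 9.72, 10.2 and 12.5 FPKM in 4H libraries. All 3 4H libraries were below all 3 CON libraries, with 4H replicate 3 closest to them. The mean fell from 16.1 ± 1.44 to 10.8 ± 1.49 FPKM, 0.670 times the CON mean, with a log2FC of -0.56 (SE 0.10, limma adjusted p = 0.00243). Over the alternatives of processing, each library left out included, its log2FC lay between -0.66 and -0.49.

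Within a library, the ratio of P2rx4 to P2rx7 does not depend on the scaling of that library. P2rx4 was 3.25, 4.09 and 4.05 times P2rx7 in the CON libraries and 0.619, 0.634 and 0.918 times P2rx7 in the 4H libraries. P2rx4 was the higher gene in every CON library and P2rx7 in every 4H library. On log2 ratios of FPKM + 0.5, the difference was -2.27 (two-sided exact permutation test, p = 0.1, the smallest that 3 against 3 allow, adjusted p = 0.167 over the 5 pairs of genes compared).

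P2rx7 and P2rx4 are neighbours on chromosome 5, transcribed in the same direction. In GENCODE M21 (GRCm38, the same build as mm10, which the submitters' processing notes name), P2rx7 spans chr5:122643911-122691432 and P2rx4 spans chr5:122707544-122729738 on the plus strand, and 16111 bases lie between them. No exon of P2rx4 overlaps another annotated gene, and exons of P2rx7 overlap the microRNA gene Mir8115 on the same strand. The table gives 1 value per gene, so the transcript variants of P2rx7 were not separated.

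The stretches before the annotated start of these neighbours are shown because the genes moved in opposite directions, and that of Gja1 because it holds the same short motif as P2rx7. They are RefSeq promoter windows of GRCm38.p6, from chr5:122643677-122643910 for P2rx7, chr5:122707294-122707543 for P2rx4 and chr10:56377050-56377299 for Gja1, all on the plus strand and ending before the first base that RefSeq or GENCODE M21 annotates as transcribed. Capitals mark matches to the motifs that were searched.
P2rx7: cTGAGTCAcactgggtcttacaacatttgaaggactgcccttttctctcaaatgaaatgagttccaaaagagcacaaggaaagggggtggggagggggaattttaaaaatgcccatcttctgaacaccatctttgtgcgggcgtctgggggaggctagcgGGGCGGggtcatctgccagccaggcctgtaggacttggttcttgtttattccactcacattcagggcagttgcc
P2rx4: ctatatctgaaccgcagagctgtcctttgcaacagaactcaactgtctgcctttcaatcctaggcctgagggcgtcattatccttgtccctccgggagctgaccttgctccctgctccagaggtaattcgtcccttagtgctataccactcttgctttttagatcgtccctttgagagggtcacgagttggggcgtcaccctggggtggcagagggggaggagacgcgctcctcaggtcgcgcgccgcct
Gja1: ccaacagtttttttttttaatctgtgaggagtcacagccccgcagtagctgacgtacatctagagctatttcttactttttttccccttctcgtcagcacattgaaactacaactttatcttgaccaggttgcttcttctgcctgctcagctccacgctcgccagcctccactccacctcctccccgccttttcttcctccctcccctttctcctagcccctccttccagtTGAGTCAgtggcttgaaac
The 250 bases before the start were searched on both strands for 6 motifs, and 9 of the 10 genes had such a window. They had 13 windows in all, and a gene was counted with a match in any of its windows. The shares below are of single windows, so a gene with more windows had more chances of a match. The AP-1 element TGANTCA, where N is any base, was found for P2rx7 at position -249 and for Gja1 at position -19, counted so that -1 is the base before the RefSeq start, and also for Adora1. It is held by 6.75% of all 32851 windows of this length. The GC box GGGCGG, for P2rx7 at -90 and again at -11 beyond the printed stretch, was found for 5 of the genes, P2rx7, P2ry2, Nt5e, Adora1 and Adora2b, and in 32.7% of all windows. P2rx4 held no match to these nor the cAMP response element TGACGTCA (1.55% of all windows), TATAAA (12.4%), CACGTG (6.02%) or the TEAD element GGAATG (12.6%). The matches are letters in a window, and binding at them was not measured.

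The whole P2X family, a list of 7 genes, was then set beside the members. Of its genes, 4 passed the filter and all 4 were called, 2 higher and 2 lower. Over all genes tested, 46.7% were called, 22.6% higher and 24.1% lower. The median log2FC of the 4 P2X genes was 0.13, against -0.01 over all genes tested. P2rx3, a receptor best known from sensory neurons, was at 5.57, 3.64 and 4.12 FPKM in CON libraries against 0.125, 0.199 and 0.125 FPKM in 4H libraries. Its log2FC was -2.91 (SE 0.16, limma adjusted p = 3.18e-06), number 8 of all genes tested by absolute size. Exons of P2rx3 overlap those of Ssrp1 on the other strand, and Ssrp1 fell from 211.8 ± 3.49 to 150.1 ± 5.03 FPKM (limma adjusted p = 8.09e-06), and reads of these genes cannot be told apart where strand was not used in counting. P2rx6 had a log2FC of 0.83 (limma adjusted p = 0.0349), with 0.311, 1.16 and 0.366 FPKM in CON libraries against 1.51, 1.12 and 1.49 FPKM in 4H libraries, which overlapped. The call of P2rx6 was lost without CON replicate 1 (limma adjusted p = 0.109), CON replicate 3 (0.111), 4H replicate 1 (0.0875) or 4H replicate 3 (0.0914). Its exons overlap those of Slc7a4 on the other strand, which was higher in the 4H group as well (0.392 and 0.878 FPKM).

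Summed over the 7 P2X genes, the level was 25.4, 26.7 and 25.8 FPKM in the CON libraries and 27.4, 28.4 and 28.1 FPKM in the 4H libraries. The sum was slightly higher in the 4H libraries, and its make-up differed. P2rx4 held 62.1 ± 4.36% of it in the CON group and 38.7 ± 5.07% in the 4H group, P2rx7 held 16.4 ± 0.971% and 54.3 ± 4.97%, and P2rx3 held 17.2 ± 4.27% and 0.533 ± 0.146% (SD, n = 3 libraries each). These shares were chosen for description after the levels had been seen.

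**Figure D2:**
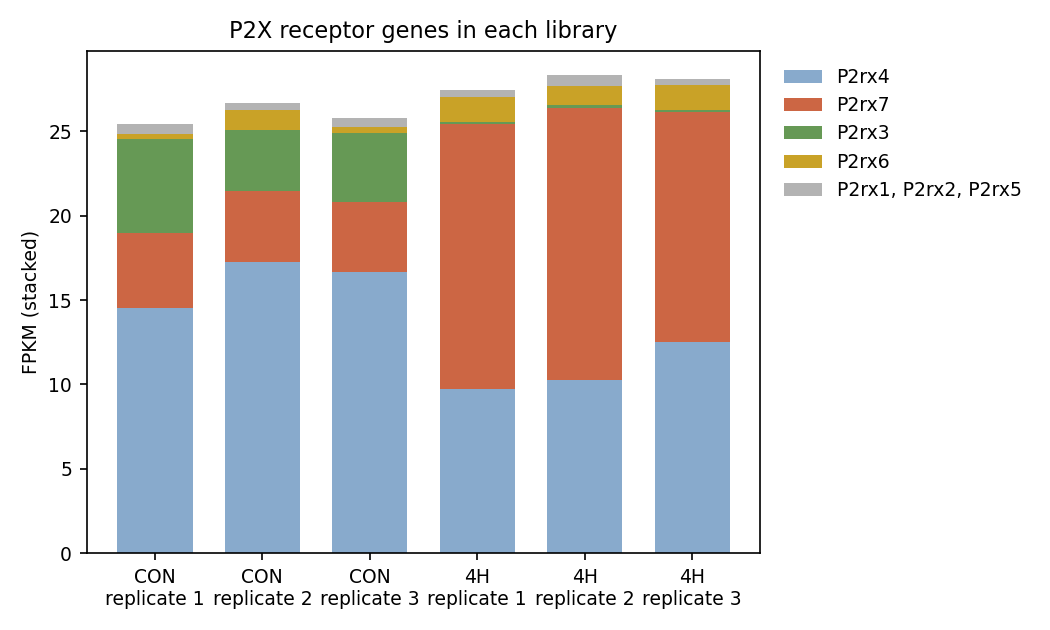
Stacked FPKM (vertical axis) of the 7 P2X receptor genes in each of the 6 libraries (horizontal axis). The columns are of like height, 25.4 to 28.4 FPKM, and P2rx7 takes 15.8 to 17.6% of a CON column and 48.5 to 57.3% of a 4H column, while P2rx3 is scarcely visible in the 4H columns.

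P2X7 is abundant in macrophages, and markers of macrophages were therefore examined beside it. Of the 6 markers, Ptprc and Adgre1, which define leukocytes and macrophages, were listed at 0 in all 6 libraries, and Itgam was listed at 0 in the CON libraries and reached at most 0.0252 FPKM in the 4H libraries. Cd68 and Csf1r moved with P2rx7. Cd68 was at 7.57 ± 0.892 and 16.4 ± 1.29 FPKM, and Csf1r was listed at 0, 0 and 0.0272 FPKM in CON libraries against 1.48, 0.966 and 0.792 FPKM in 4H libraries. The 6 markers summed to 6.82 to 8.55 FPKM in CON libraries against 16.6 to 18.6 FPKM in 4H libraries, most of it Cd68, and their part in the result was not tested. Endothelial and epithelial markers, 5 genes each, were low and also higher in each 4H library, with sums of 0.147 to 0.287 against 0.467 to 0.619 FPKM for the endothelial and of 0.0401 to 0.148 against 0.415 to 0.826 FPKM for the epithelial list, and their part was not tested either. Over the whole table, each 4H library had fewer rows listed at 0 than each CON library.

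P2ry2 (ENSMUSG00000032860, chr7:100996568-101012866, minus strand) encodes P2Y2, a receptor of ATP and UTP that couples to Gq and raises calcium. It was at 2.18, 2.16 and 2.06 FPKM in CON libraries against 3.68, 3.59 and 3.10 FPKM in 4H libraries. Every 4H library was higher than every CON library. The mean rose from 2.13 ± 0.0676 to 3.45 ± 0.313 FPKM, 1.62 times the CON mean, with a log2FC of 0.58 (SE 0.09, limma adjusted p = 0.00124). P2ry2 was the only one of the 8 P2Y genes listed to pass the filter. Of the others, Gpr17 was nearest to it, at 0.469 ± 0.0667 and 0.446 ± 0.104 FPKM, and P2ry4 and P2ry13 were listed at 0 in all 6 libraries.

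The adenosine receptors were low. Adora2b (ENSMUSG00000018500, chr11:62248984-62266453, plus strand) encodes A2B, a low-affinity receptor that raises cAMP. It was at 0.951, 1.37 and 0.952 FPKM in CON libraries against 1.16, 1.12 and 0.912 FPKM in 4H libraries, and the groups overlapped. Its log2FC was -0.02, with a 95% interval of -0.36 to 0.32, or 0.782 to 1.25 times the CON level (limma adjusted p = 0.928). Changes of a size within that interval are compatible with these values. Adora1 (ENSMUSG00000042429, chr1:134199223-134235431, minus strand), the gene of the A1 receptor that lowers cAMP, was listed at 0.0407 FPKM in CON replicate 1 and at 0 in the other 5 libraries. Its exons overlap those of Mybph on the other strand. Of the remaining receptors of the family, Adora2a was at 0.730 ± 0.199 and 0.985 ± 0.0934 FPKM and was not called (limma adjusted p = 0.171), and Adora3 was listed at 0 throughout.

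Set against each other within a library, Adora2b was 0.436, 0.632 and 0.463 times P2ry2 in the CON libraries and 0.315, 0.311 and 0.295 times P2ry2 in the 4H libraries. The log2 ratio was 0.60 lower in the 4H group (difference -0.60, two-sided exact permutation test, p = 0.1, adjusted p = 0.167 over the 5 pairs). For the pairs of Entpd1 with Nt5e and of Adora2b with Adora1 no ratio is given, since Entpd1 and Adora1 were listed at 0 in 5 libraries each.

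Of the ecto-nucleotidases among the 10 genes, Nt5e was expressed and rose, and Entpd1 was listed at or near 0. Nt5e (ENSMUSG00000032420, chr9:88327197-88372092, plus strand) encodes CD73, the surface enzyme that turns AMP into adenosine. It was at 2.23, 2.19 and 2.18 FPKM in CON libraries against 2.98, 3.04 and 3.60 FPKM in 4H libraries. The CON libraries lay close together and all 4H libraries above them. The mean rose from 2.20 ± 0.0243 to 3.21 ± 0.344 FPKM, 1.46 times the CON mean, with a log2FC of 0.45 (SE 0.10, limma adjusted p = 0.00540). Entpd1 (ENSMUSG00000048120, chr19:40612366-40741602, plus strand), the gene of CD39, which turns ATP and ADP into AMP, was listed at 0.0140 FPKM in 4H replicate 3 and at 0 in the other 5 libraries.

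The other surface enzymes of the same list were also low. Entpd2 and Entpd3, relatives of Entpd1, reached at most 0.166 and 0.0686 FPKM in a library, and Entpd8 was listed at 0. Of the 9 genes of the list, 4 passed the filter, with a median log2FC of 0.07. Among these, 2 were called higher and 1 lower, against 46.7% called in either direction over all genes tested. Enpp1, whose enzyme splits ATP into AMP and pyrophosphate, was at 1.17, 1.14 and 0.802 FPKM in CON libraries against 2.05, 1.77 and 2.46 FPKM in 4H libraries (log2FC 0.75, limma adjusted p = 0.00384). Enpp3, of the same family, fell from 1.45 ± 0.0166 to 1.07 ± 0.0628 FPKM (log2FC -0.31, limma adjusted p = 0.0388). That call was lost whichever of the 6 libraries was left out (limma adjusted p = 0.0662 to 0.0986). Enpp2, the gene of autotaxin, was at 0.768 ± 0.209 and 0.496 ± 0.145 FPKM and was not called (limma adjusted p = 0.143). Nt5e made up 39.0 ± 0.702% of the summed FPKM of the list in the CON group and 46.5 ± 1.32% in the 4H group. The 5 NTPDases of the secretory pathway were all tested, and none was called (limma, 0 at an unadjusted p under 0.05), with a median log2FC of -0.15. The values were -0.27 for Entpd6, -0.17 for Entpd5, -0.15 for Entpd4 and 0.12 for Entpd7. Entpd4 and Entpd4b are near-identical copies whose reads could be split between them.

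Of the 3 channel genes among the members, Gja1 alone was called, with a small change. Gja1 (ENSMUSG00000050953, chr10:56377330-56402513, plus strand) encodes connexin 43, the main gap junction protein of myoblasts. It was at 69.8, 72.5 and 70.7 FPKM in CON libraries against 77.9, 76.1 and 77.4 FPKM in 4H libraries. The groups did not overlap. The mean rose from 71.0 ± 1.42 to 77.2 ± 0.933 FPKM, 1.09 times the CON mean. The log2FC was 0.12 (SE 0.03, limma adjusted p = 0.0124), and over the alternatives the adjusted p ranged from 0.00388 to 0.0488.

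Gjc1 (ENSMUSG00000034520, chr11:102799579-102819700, minus strand) encodes connexin 45. It was at 18.3, 15.7 and 17.8 FPKM in CON libraries against 15.2, 18.2 and 17.3 FPKM in 4H libraries, ranges that nearly coincide. The log2FC was -0.03 with a 95% interval of -0.22 to 0.16 (limma adjusted p = 0.785). The ratio of Gja1 to Gjc1 was 3.82, 4.63 and 3.97 in the CON libraries and 5.12, 4.19 and 4.48 in the 4H libraries. These overlapped (difference of log2 ratios 0.15, two-sided exact permutation test, p = 0.3, adjusted p = 0.375 over the 5 pairs).

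Panx1 (ENSMUSG00000031934, chr9:15002128-15045478, minus strand) encodes pannexin 1, a channel for ATP release that is also described in muscle fibers. It was at 5.67, 5.32 and 8.43 FPKM in CON libraries against 5.59, 5.04 and 4.57 FPKM in 4H libraries. CON replicate 3 stood above the other 5 libraries, and the remaining values of the groups overlapped. The log2FC was -0.30 with a 95% interval of -0.67 to 0.06 (limma adjusted p = 0.154), and without CON replicate 3 it was -0.11 (adjusted p = 0.422). Among the other genes of ATP release, Lrrc8d, a subunit of the volume-regulated anion channel, was high in the same library, at 19.0 FPKM against 11.8 and 11.1 FPKM in the other CON libraries.

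**Figure D3:**
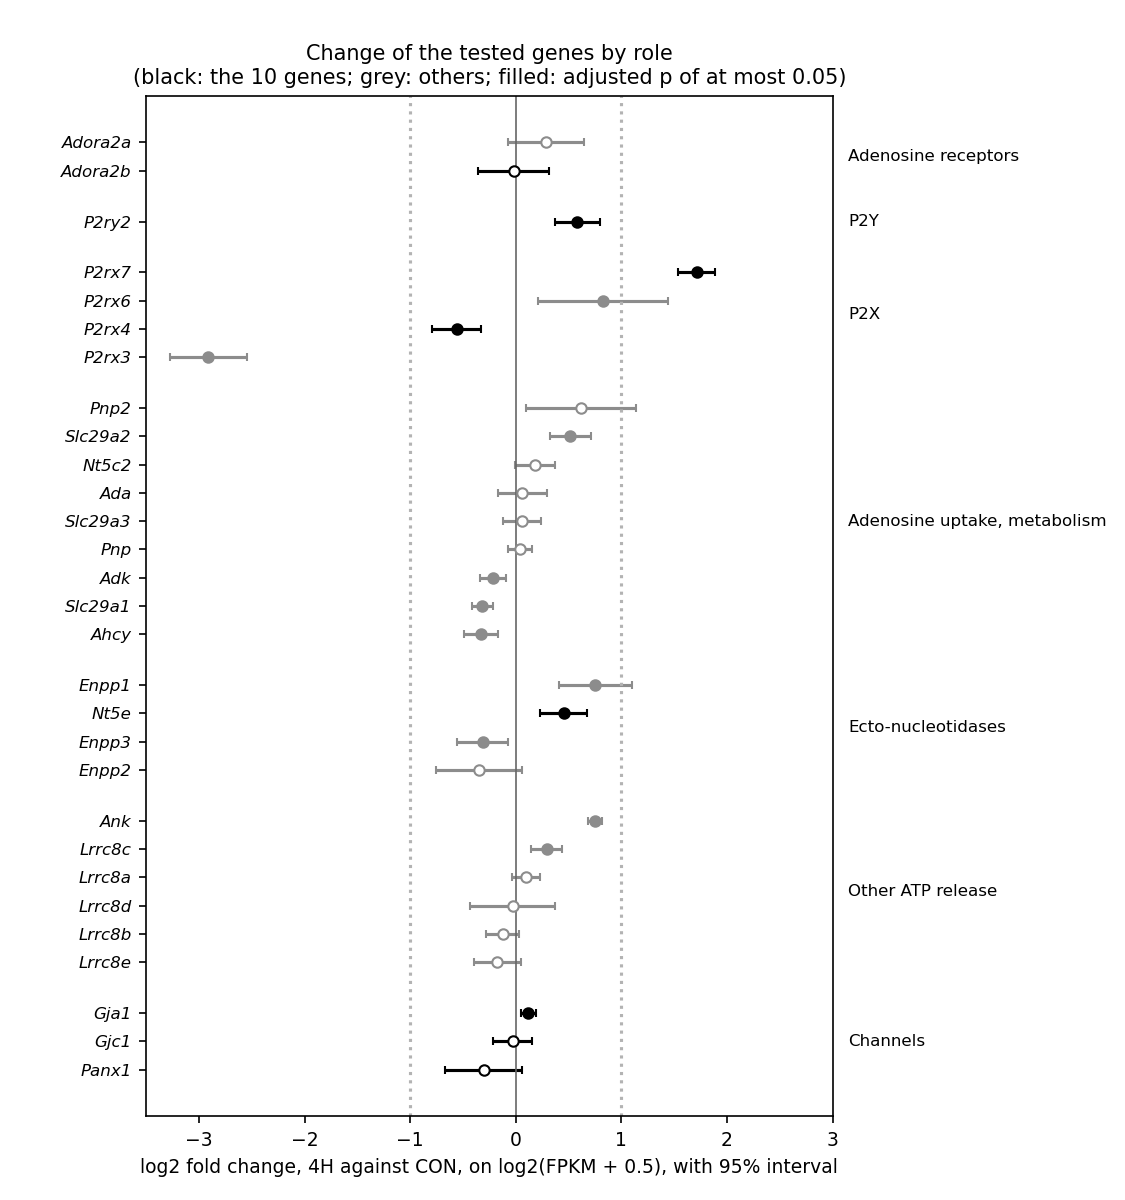
Log2FC of 4H against CON (horizontal axis, on log2(FPKM + 0.5), bars are 95% intervals) for the genes of ATP release, nucleotide and adenosine turnover and receptors that passed the filter, grouped by role (channels: the members alone), with the members in black and filled points at an adjusted p of at most 0.05. P2rx7 at 1.71 lies beyond the dotted line at 1, P2rx4 at -0.56 and P2rx3 at -2.91 lie on the other side of 0, and the intervals of Panx1, Gjc1 and Adora2b include 0.

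The connexin and pannexin families hold 23 genes in the list, of which 6 were listed at 0 in all 6 libraries. Gja1 held 73.3 ± 2.42% of the summed FPKM of the families in the CON group and 71.9 ± 0.903% in the 4H group, Gjc1 held 17.8 ± 1.32% and 15.7 ± 1.40%, and Panx1 held 6.65 ± 1.59% and 4.72 ± 0.486%. Gja1 was thus the leading gene of the families in each library. Gja5, which encodes a connexin of endothelium and atrial muscle and did not pass the filter, was at 0.524, 0.355 and 0.308 FPKM in CON libraries against 0.699, 0.562 and 0.527 FPKM in 4H libraries. Its exons overlap those of Gpr89 on the other strand.

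Of the 14 genes in the table for other routes of ATP release, 6 passed the filter, 2 were called higher and 0 lower (limma, no lower gene at an unadjusted p under 0.05). Over all genes tested, 22.6% were called higher and 24.1% lower. Ank, a membrane protein linked to the export of pyrophosphate and ATP, rose from 89.8 ± 1.22 to 151.8 ± 3.11 FPKM (log2FC 0.75, limma adjusted p = 5.14e-07). Lrrc8c, another subunit of the volume-regulated anion channel, rose from 5.61 ± 0.252 to 7.00 ± 0.151 FPKM (log2FC 0.30, limma adjusted p = 0.00602). Lrrc8a, Lrrc8b, Lrrc8d and Lrrc8e were not called, with a log2FC of 0.09, -0.13, -0.03 and -0.17. Slc17a9, the vesicular nucleotide transporter, was at most at 0.167 FPKM in a library. The median log2FC of the 6 genes was 0.03.

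**Figure D4:**
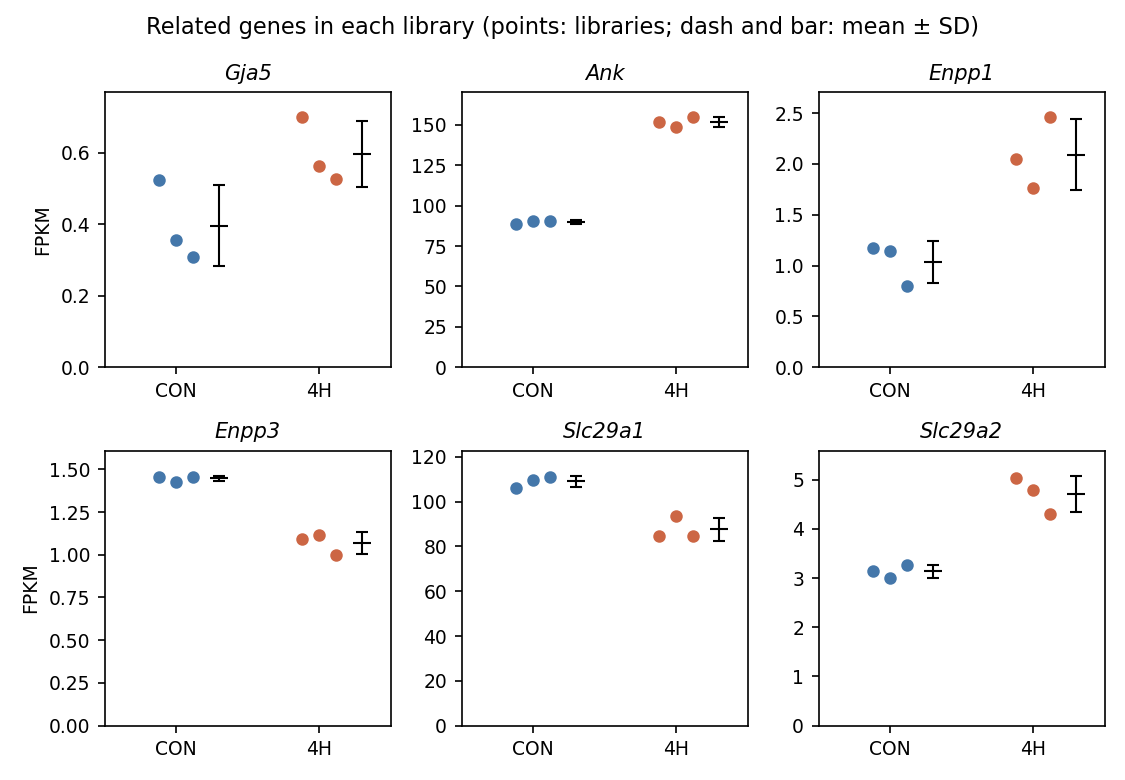
FPKM (vertical axes, each starting at 0) of 6 related genes in the CON and 4H libraries, with 1 point per library and the mean ± SD beside the points. Ank, Enpp1, Slc29a2 and Gja5 are higher in each 4H library than in each CON library, and Enpp3 and Slc29a1 are lower. Gja5 lies between 0.308 and 0.699 FPKM in all, and its groups nearly touch, at 0.524 FPKM in CON and 0.527 FPKM in 4H.

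Adenosine is removed by uptake and by intracellular enzymes. The list of adenosine uptake and metabolism also holds Ahcy, whose enzyme forms adenosine, and 9 of its 15 genes were tested. Of these, 3 were called lower and 1 higher, against 24.1% lower and 22.6% higher over all genes tested. The median log2FC of the list was 0.06. Slc29a1, the equilibrative nucleoside transporter 1 and the most abundant gene of the list, fell from 109.1 ± 2.60 to 87.6 ± 5.04 FPKM (log2FC -0.32, limma adjusted p = 0.000605). Ahcy, which splits S-adenosylhomocysteine into homocysteine and adenosine, fell from 35.8 ± 1.89 to 28.4 ± 2.63 FPKM (log2FC -0.33, limma adjusted p = 0.00542), and Adk, adenosine kinase, fell from 36.2 ± 0.428 to 31.1 ± 2.18 FPKM (log2FC -0.22, limma adjusted p = 0.00989). Slc29a2, the second transporter of this type, rose from 3.14 ± 0.135 to 4.71 ± 0.373 FPKM (log2FC 0.52, limma adjusted p = 0.00139). Pnp2, a purine nucleoside phosphorylase with a close relative in Pnp, had the largest log2FC of the list, 0.62, and was not called (limma adjusted p = 0.0530). CON replicate 3 stood at 1.49 FPKM and the other CON libraries at 3.31 and 3.07 FPKM, and without it the log2FC of Pnp2 was 0.32 and called (limma adjusted p = 0.0332). It was also called without CON replicate 1 (0.0298) or CON replicate 2 (0.0498). Exons of Slc29a1 overlap the gene Gm17080 on the other strand.

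The signal paths behind the receptors were covered by a pair of further lists. From Gq to calcium, the path of P2Y2, 8 of 11 genes were tested, 1 was called higher, 1 lower and 6 were not called, with a median log2FC of 0.00. Plcb3, a phospholipase C, rose from 28.0 ± 0.138 to 38.3 ± 1.35 FPKM (log2FC 0.44, limma adjusted p = 4.40e-05), and Itpr2, a receptor of IP3 that releases stored calcium, fell from 13.4 ± 0.498 to 7.61 ± 0.154 FPKM (log2FC -0.78, limma adjusted p = 1.21e-05). Next in size, and not called, were Plcb4 and Itpr1 with a log2FC of -0.19 and 0.16. Without 4H replicate 3, Plcb4 was called at -0.30 (limma adjusted p = 0.0176). Exons of Plcb3 overlap those of Ppp1r14b on the other strand. On the path from Gs and Gi to cAMP, used by adenosine receptors, 8 of 16 genes were tested, 4 were called higher and 0 lower (limma, no lower gene at an unadjusted p under 0.05), with a median of 0.21. Beside both lists stands the share over all genes tested, 46.7% called, 22.6% higher and 24.1% lower. Adcy7, an adenylyl cyclase, rose from 55.5 ± 1.41 to 84.3 ± 1.52 FPKM (log2FC 0.60, limma adjusted p = 3.34e-06), and Adcy6, Gnao1 and Gnai2 were called with a log2FC of 0.32, 0.38 and 0.17. Adcy9, with a log2FC of 0.25, was not called (limma adjusted p = 0.0567), and without 4H replicate 3 it was called at 0.32 (0.0364). Gnas, which encodes the Gs protein, was at 378.9 ± 14.6 and 366.6 ± 12.1 FPKM and was not called (limma adjusted p = 0.327).

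**Figure D5:**
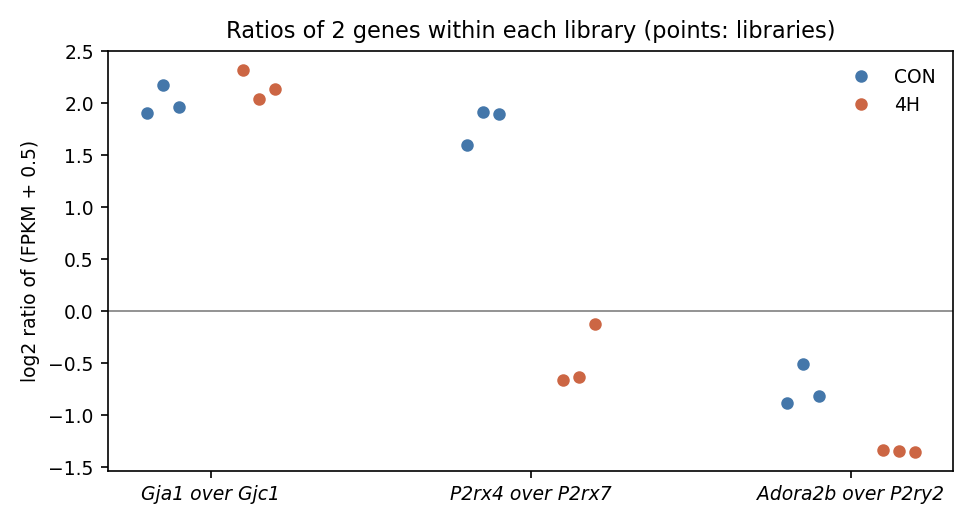
Log2 ratio of FPKM + 0.5 between 2 of the members within each library (vertical axis), 1 point per library, for the 3 pairs in which both genes were expressed. P2rx4 over P2rx7 lies between 1.60 and 1.91 in the CON libraries and between -0.67 and -0.12 in the 4H libraries, and the points of Gja1 over Gjc1 overlap.

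By profile over the 6 libraries, taken as log2(FPKM + 0.5) relative to the CON mean, the nearest to P2rx7, among 8617 genes that averaged 5 FPKM or more, were Errfi1 and Nmnat2, with root mean square differences of 0.085 and 0.092. Their log2FCs were 1.75 and 1.73. Errfi1 encodes an inhibitor of the EGF receptor and Nmnat2 an enzyme of NAD synthesis. Nearest to P2ry2 were Mdm2, which encodes the ubiquitin ligase of p53, Dip2a and Uaca, with differences of 0.049, 0.051 and 0.052. With 2 groups, such a likeness rests mainly on an equal change between them.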

How the data were processed

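The authors deposited 1 table of FPKM values, with 1 column for each of the 6 libraries (3 CON, 3 4H). Poly(A) RNA was sequenced as paired ends from strand-specific libraries. The submitters' processing notes name the build mm10, while for aligner, assembler and counter the sources used here give nothing. Of the 22375 rows, 22128 carry an Ensembl identifier, and 22017 of these are in GENCODE M21, which was used for coordinates and overlaps of exons. No 2 libraries had identical columns.

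FPKM is not a count, so limma 3.58.1 in R 4.3.3 (trend on mean expression, no block) was run on log2(FPKM + 0.5), as a two-sided test in all genes with 0.5 FPKM or more on average. The study's DESeq2 needs read counts and was not run. The fit was tested on simulated data. Pair ratios were tested with exact permutation tests in SciPy 1.17.1. Named were all 10 members, genes of the pathway lists, with values for the 4 largest changes of a list, and the 3 genes nearest in profile to the 2 members with the largest changes. Ssrp1, Slc7a4, and list genes under the filter such as Gja5, Gpr17 and Slc17a9 were added once their values had been seen. The members and lists were chosen with earlier results of these data known. Alternatives were pseudocounts of 0.1 and 1, no filter and a filter at 1 FPKM, a replicate block, limma without trend, quantile normalization, median-of-ratios scaling, rescaling to TPM and each library left out. A few genes that this rule names are not reported here. Precision rests on 3 libraries a group.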

Additional observations from a re-analysis of the deposited data

How the results depend on the processing

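The 4 members called higher and the 1 called lower kept their calls under all 15 alternatives, and P2rx7 alone passed both thresholds in each of them. The number of genes past both thresholds was 450 and moved most, to 703, with libraries rescaled to TPM. The sign of 2 members that were not called changed. The log2 fold change of Gjc1 was 0.0048 with TPM and -0.096 to 0.041 with 1 library left out, and that of Adora2b was 0.0088 with TPM and -0.080 to 0.10 with 1 library left out, and the cause was not tested. Over all genes, the median change lay between -0.025 and 0.028 under every scaling. Replicate numbers are those of the biosamples in the labels, which tie them to no shared day or batch, and deviations of same-numbered libraries from their group means correlated at 0.025, -0.093 and -0.13 across genes. The numbers in the library titles differ from these in the 4H group, and by title the correlation was 0.025 for the pair numbered 1 and 0.18, the highest of all, for the pair numbered 3 (4H replicate 2 and CON replicate 3). Neither numbering was taken to pair the samples, and a block by title was not run. With a replicate block by biosample number, 4964 genes in place of 5409 were called, the members kept their calls, P2rx6 had an adjusted p of 0.0588 and Enpp3 of 0.0833, no longer called, and Pnp2 of 0.0438, now called (limma). Without a filter P2rx6 had 0.0668, with quantile normalization 0.0650 and without trend 0.0532. Other genes gained a call, Adcy9 and Itpr1 without trend (0.0370 and 0.0178) and with TPM (0.0415 and 0.0331), Enpp2 with quantile normalization (0.0417) and Pnp2 with a pseudocount of 1 (0.0486). The depth of the libraries is unknown, so no floor can be given for Entpd1 and Adora1, and differences in genes near 1 FPKM, such as Adora2b, are measured with wide intervals.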
